A study of Mus musculus with 6 samples.

Results

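The ETS transcription factor genes, 10 in number, were followed in RNA from mouse gastric corpus organoids, which are epithelial cultures grown in 3 dimensions. They were Ets1, Ets2, Etv1, Etv4, Etv5, Elk3, Etv6, Elf1, Elf3 and Ehf. They were taken as a named list, by Ensembl ID, from the 25528 genes in each count table, and all 10 of 10 were found and had enough counts to be tested. The Erbb2_OE_Corpus group held 3 libraries from organoids that overexpressed Erbb2, the receptor tyrosine kinase also called HER2. The Ctrl_Corpus group held 3 libraries from organoids that carried an empty vector in place of it. The labels give no promoter for the construct, no mouse strain or age and no other allele, and no further treatment of either group. Whether a group's 3 libraries are of separate cultures, lines or animals is not stated, so that p-values measure the spread between these libraries, which may be technical.

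ETS factors share a winged helix-turn-helix domain that binds DNA around a GGAA core. Several of them are endpoints of the RAS, RAF, MEK and ERK cascade, which ErbB receptors switch on. ERK phosphorylates Ets1, Ets2 and the ternary complex factors of the Elk group, and the PEA3 group (Etv1, Etv4 and Etv5) is both a substrate of ERK and transcribed more when ERK is active. In that last case ERK relieves repression by Capicua, the product of Cic. Elf3 and Ehf belong to an epithelium-specific branch of the family, and Etv6 is a repressor.

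Promoter windows show what DNA the same family could bind in front of its own genes. RefSeq promoter sequences of build GRCm38.p6 were matched for 7 of the 10 genes, in 10 windows of 250 bases upstream of an annotated start. Etv4, Ehf and Ets1 were not matched. Both Etv5 windows are shown because Etv5 is a PEA3 gene, the Elk3 window because Elk3 differed in 1 direction in every pair of libraries, and the Etv6 window as that of a gene whose level was nearly the same in all libraries. Capitals mark GGAA or its complement TTCC, and TGAATG or its complement CATTCA, the core of described Capicua sites. The coordinates are Etv5 chr16:22438369-22438618 on the minus strand, Etv5 chr16:22439571-22439820 on the minus strand, Elk3 chr10:93311160-93311409 on the minus strand and Etv6 chr6:134035450-134035699 on the plus strand.
Etv5 window near 22438369: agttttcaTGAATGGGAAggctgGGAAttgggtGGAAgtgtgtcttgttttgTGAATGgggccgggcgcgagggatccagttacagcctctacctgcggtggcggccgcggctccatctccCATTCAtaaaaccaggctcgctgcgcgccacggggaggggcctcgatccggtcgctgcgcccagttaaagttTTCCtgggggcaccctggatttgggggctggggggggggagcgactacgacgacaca
Etv5 window near 22439571: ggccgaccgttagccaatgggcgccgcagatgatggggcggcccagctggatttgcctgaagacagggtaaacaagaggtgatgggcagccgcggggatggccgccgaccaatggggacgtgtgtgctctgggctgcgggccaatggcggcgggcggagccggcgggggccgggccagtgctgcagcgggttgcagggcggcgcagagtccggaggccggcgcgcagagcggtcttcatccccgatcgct
Elk3 window: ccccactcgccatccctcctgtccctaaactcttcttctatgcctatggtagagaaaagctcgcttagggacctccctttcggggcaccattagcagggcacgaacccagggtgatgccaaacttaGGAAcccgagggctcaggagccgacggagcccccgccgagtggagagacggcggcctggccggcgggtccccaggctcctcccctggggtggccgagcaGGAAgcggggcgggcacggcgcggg
Etv6 window: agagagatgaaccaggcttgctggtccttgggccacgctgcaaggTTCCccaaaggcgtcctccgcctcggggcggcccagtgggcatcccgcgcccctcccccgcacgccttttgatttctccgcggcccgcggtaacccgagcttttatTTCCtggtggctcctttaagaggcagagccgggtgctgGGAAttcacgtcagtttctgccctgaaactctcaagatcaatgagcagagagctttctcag

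Each motif was searched on both strands, and the share of all 32851 promoter windows of the table that hold it is the background. The core GGAA was in 93.4% of all windows. It occurred 4 times in the Etv5 window near 22438369, 3 times in the Etv6 window, 2 times in the Elk3 window and 0 times in the other Etv5 window. Finding the core in a window therefore says little about that window. The octamers TGAATGAA and TGAATGGA, described for Capicua, were in 2.07% of all windows and in 0 of the 10 windows here. The shorter TGAATG was in 10.9% of all windows and stood 3 times in the Etv5 window near 22438369. At least 3 such sites were found in 0.131% of all windows. None of the other windows here held TGAATG, and these include the windows of Etv1, also a PEA3 gene, which are not printed. All 3 sites in this Etv5 window went on as TGAATGGG, an octamer that 0.931% of all windows held and that stood at least 3 times in 1 window of 32851. One of these TGAATGGG sites overlaps a GGAA core, as the run TGAATGGGAA in the printed sequence shows. TGAATGGG was searched after the window had been read, so its rarity is a description. The AP-1 motif TGACTCA or TGAGTCA was in 4.46% of all windows and in 1 window here, the second of Elf1. No binding was measured in these samples.

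The libraries held 18812206 to 22767455 counts in the Erbb2-overexpressing group and 18735853 to 22249270 counts in the control group. Levels are counts per 1000000 mapped counts (CPM) after scaling by the trimmed mean of M values. Erbb2, the check of the labels, stood at 342, 349 and 285 CPM in the Erbb2-overexpressing libraries, all above the 125, 164 and 128 CPM of the controls. Even so, edgeR with the group as the single term did not call Erbb2 (adjusted p of 0.640), whereas edgeR with the replicate number as a second term, a block, did (adjusted p of 3.55e-05), as did DESeq2 without the block (adjusted p of 5.06e-09). Both libraries numbered 3 lay together at 1 end of the main component of variation, which held 56.3% of the variance. Libraries with the same number deviated together from their group means (correlations across genes of 0.299, 0.619 and 0.675), so the number was treated as pairing them. Unlike numbers also reached 0.123 (overexpressing 2 with control 1) and 0.102 (overexpressing 1 with control 2), against 0.299 for the first pair. The correlation was negative in every combination of a library numbered 3 with a library numbered 1 or 2. The deviations of a group's libraries cancel out for each gene, so positive values for like numbers push those for unlike numbers down. The negative values are therefore no separate evidence for the pairing. Epithelial markers were high throughout: 6 of 6 simple epithelial genes were tested and their sum was 7487 to 7685 CPM with Erbb2 overexpression and 6696 to 7738 CPM in controls. Of 12 gastric lineage markers 9 were tested, and the parietal marker Atp4b had 0 counts in every library. Atp4a, the other parietal marker, was present in every library, at 2.87 to 5.41 CPM with Erbb2 overexpression and 3.20 to 4.62 CPM in controls. With the block 2 of the 9 tested gastric markers were called, Tff2 higher and Sox2 lower, where 3.09% of all genes were called (2.37% higher and 0.723% lower). Of 6 squamous markers 3 were tested, and 1 of these, Ivl, was called higher, against the same 2.37% of all genes. Of 9 fibroblast markers 1 was tested, with sums of 1.35 to 1.93 CPM with Erbb2 overexpression and 0.695 to 1.55 CPM in controls, and Col1a2, Pdgfrb, Dcn, Lum and Thy1 were at 0. In bulk RNA, fewer cells of a type and less RNA per cell cannot be told apart.

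The levels of the 10 genes, per kilobase of exonic length so that genes can be compared, spanned from abundant to barely present. Elf3, which the mouse intestinal epithelium needs to differentiate, was the most abundant at 204 ± 31.9 CPM per kilobase with Erbb2 overexpression and 212 ± 44.6 in controls (SD, n = 3 each). Ehf, its close relative, followed at 110 ± 4.11 with Erbb2 overexpression and 113 ± 12.4 in controls. Together Elf3 and Ehf made up 59.6% to 64.8% of the summed per-kilobase level of the ETS family in the Erbb2-overexpressing libraries and 59.8% to 68.0% in the controls. The epithelium-specific genes thus held most of the ETS transcript level in both groups.

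Over all 6 libraries, Etv6 had 30.6 ± 1.04 CPM per kilobase (SD, n = 6). Elf1 had 24.1 ± 2.43, Ets2 had 23 ± 1.74 and Elk3 had 15.7 ± 4.08 CPM per kilobase. Etv4 had 9.53 ± 5.43, Etv5 had 4.90 ± 3.16, Ets1 had 1.54 ± 0.746 and Etv1 had 0.157 ± 0.0778 CPM per kilobase. In this order each gene was above the next in 6 of 6 libraries, except that Elf1 was above Ets2 in 3 of 6 and Ets2 above Elk3 in 5 of 6. The place of Etv6 depended on the length used: per kilobase of the longest transcript, Elf1 (38.3) and Ets2 (34.2) stood above Etv6 (32.1). The genes of the PEA3 group and Ets1 were therefore the least abundant of the 10.

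**Figure D1:**
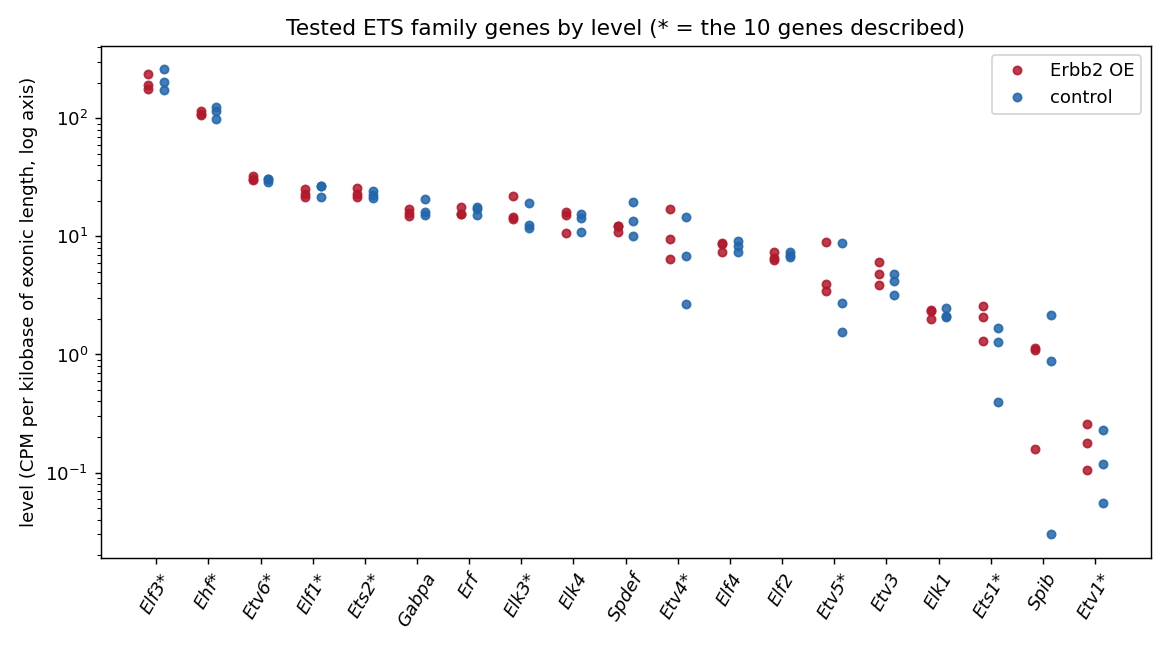
Level of each tested ETS family gene in CPM per kilobase of exonic length on a log axis, in Erbb2-overexpressing libraries (red) and controls (blue), with 1 point per library; an asterisk marks the 10 genes described. Elf3 (mean 208) and Ehf (mean 112) stand above all others, and Etv4, Etv5, Ets1 and Etv1 show the widest scatter among the 10.

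Fits in edgeR were made in 2 designs over the same 12593 genes, with p-values adjusted over all of them by the Benjamini-Hochberg method. With the group as the single term, 0 of the 10 ETS genes passed an adjusted p of 0.05, where the share called among all genes was 0%. None of the 10 had an unadjusted p under 0.05 in that edgeR fit, against 3.33% of all genes. DESeq2 and limma voom without the block also called 0 of the 10, although DESeq2 called 34 genes in all (0.270%). Leaving out any single library without the block also left 0 of the 10 called in edgeR, with at most 0.00785% of all genes. Once replicate number entered as a block, so that each overexpressing library was set against the control of its number, edgeR called 1 of the 10, Ets1, against 3.09% of all genes, or 2.37% in the higher direction. Other settings with the block, fitted on all 6 libraries, called between 1 and 2 of the 10: DESeq2 called 2, with 3.67% of all genes, and the others Ets1 only. Their shares of all genes were 3.31% by limma voom, 3.14% and 3.02% under relative log expression and upper-quartile scaling, 2.08% with no filter on low counts, 3.26% at 1 CPM in 3 libraries, 3.22% under an earlier form of the edgeR fit and 3.09% without mitochondrial genes and Erbb2. Under the block 4 of the 10 had an unadjusted p under 0.05, against 16.9% of all genes. These were Ets1, Etv4, Etv5 and Elk3, which were also the genes higher in 3 of 3 pairs (4 of 10, against 19.6% of all genes). The groups overlapped for all 10, where 8.75% of all genes had groups that did not overlap. The fit with the group alone, which called 0 of the 10, left Erbb2 itself uncalled too. The median log2 fold change of the 10 was 0.14 in the block fit, against -0.01 over all genes. Genes are said to have risen or fallen only where they passed in this block fit, whose p-values leave out the spread between numbers.

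**Figure D2:**
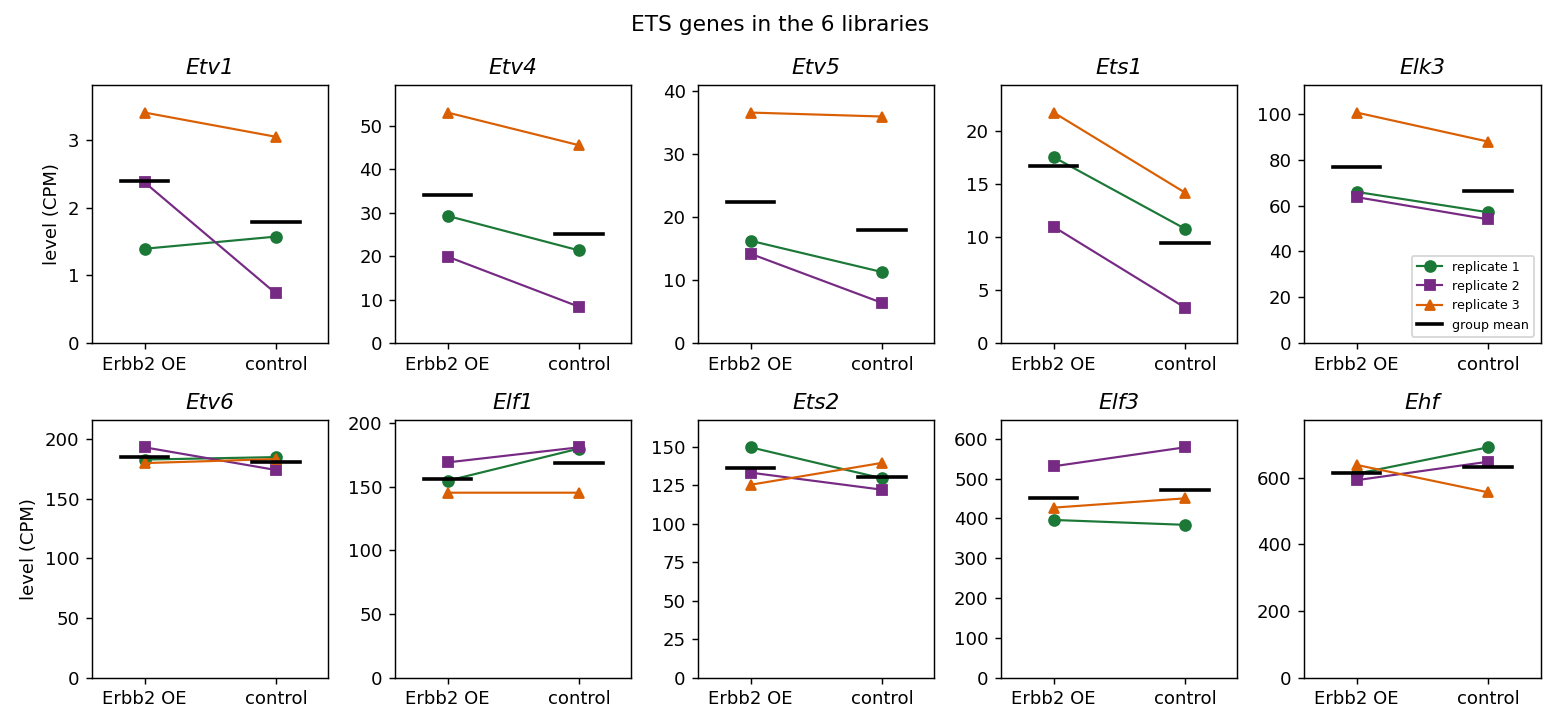
Level in CPM of the 10 ETS genes in each library, with lines joining libraries of the same replicate number and a black bar at the group mean; axes start at 0 and differ between panels. Ets1, Etv4, Etv5 and Elk3 are higher with Erbb2 overexpression in 3 of 3 pairs, while replicate 3 is above replicate 2 in both groups for each of them.

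Ets1 (ENSMUSG00000032035, chromosome 9), the founding member of the family and an ERK substrate, had 17.5, 10.9 and 21.7 CPM in Erbb2-overexpressing libraries 1, 2 and 3, against 10.8, 3.32 and 14.2 CPM in the controls of the same numbers. Library 2 was the lowest and library 3 the highest of each group, and every overexpressing library was above its own control, but the groups overlapped because control 3 stood above overexpressing library 2. The log2 differences within pairs were 0.70, 1.71 and 0.61. Ets1 rose 1.82-fold in the block fit, or by 0.87 on the log2 scale (SE 0.19, 95% interval 0.46 to 1.27), and its adjusted p was 0.0265 in edgeR. With the group alone it was 0.82 (SE 0.49, interval -0.36 to 2.0) in edgeR, with an adjusted p that rounded to 1.0 and lay between 0.979 and 1.0 over 7 settings without the block.

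The Ets1 call needed all 3 pairs or pairs 1 and 2. Without the libraries numbered 1 the log2 fold change was 1.02 with an adjusted p of 0.0877, and without those numbered 2 it was 0.67 with an adjusted p of 0.101 (edgeR with the block). Without those numbered 3, which stood apart, it was 1.06 with an adjusted p of 4.45e-05. Each fit without a pair, here and below, rests on 2 pairs, so its p-values lean on the spread shared across all genes. The call was made under the block and 8 other settings of it with all libraries, with adjusted p from 0.00271 to 0.0310. As background, Ets1 is also a gene of lymphoid and endothelial cells. The immune markers, of which 2 of 9 were tested and 0 called, summed to 36, 18.6 and 74.0 CPM in overexpressing libraries and 24.6, 20.8 and 54.2 CPM in controls, almost all from Cd68, a lysosomal protein gene. Ptprc, which marks all leukocytes, had at most 1.08 CPM with overexpression and 1.97 CPM in controls, while Tyrobp was at 0. The endothelial markers summed to 6.11, 4.02 and 17.7 CPM in overexpressing libraries and 5.33, 4.73 and 9.38 CPM in controls. Of that list 4 of 9 genes were tested and 0 called, Emcn was at 0, and Pecam1 and Cdh5 had at most 0.169 CPM in any library. Tek, an endothelial receptor gene, had 8.95 CPM in overexpressing library 3 and at most 0.688 CPM in every other library. The part of these cells in the Ets1 result was not tested.

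Ets2, the paralog of Ets1 that ERK also phosphorylates, had 150, 133 and 125 CPM with Erbb2 overexpression, against 129, 122 and 139 CPM in controls. The groups overlapped, and pair 3 ran opposite to the others. Its log2 fold change was 0.06 (block fit, interval -0.13 to 0.25), with an adjusted p of 0.798 in edgeR.

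Etv4 (ENSMUSG00000017724, chromosome 11), also called Pea3, had 29.3, 19.9 and 53.1 CPM in the overexpressing libraries, against 21.3, 8.34 and 45.6 CPM in the controls. It was higher in every pair, most in the second, and both libraries numbered 3 exceeded all the others. The log2 fold change was 0.55 (SE 0.17, interval 0.17 to 0.93) with an adjusted p of 0.136 in the edgeR block fit, so the change was not called. DESeq2 with the block called it (0.62, adjusted p of 0.0256), and over 9 settings with the block and all libraries the adjusted p ran from 0.0256 to 0.153. Without the libraries numbered 3, edgeR with the block gave 0.78 with an adjusted p of 0.000121.

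Etv5 (ENSMUSG00000013089, chromosome 16), also called Erm, had 16.2, 14.2 and 36.6 CPM with overexpression, against 11.3, 6.37 and 36 CPM in controls. Both pairs 1 and 2 showed higher values with overexpression, whereas the libraries of pair 3 were nearly equal and the highest of their groups. Its log2 fold change was 0.45 (SE 0.18, interval 0.04 to 0.85) with an adjusted p of 0.254 in the edgeR block fit. Without the libraries numbered 3 it was 0.80 with an adjusted p of 0.00107. In that fit on 2 pairs 3 of the 10 ETS genes were called (Ets1, Etv4 and Etv5), and so were 8.71% of all genes, whereas leaving out the libraries numbered 1 or 2 left 0 ETS genes called, with 1.69% and 1.14% of all genes.

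Etv1, the remaining PEA3 gene, known in the gut from the pacemaker cells of Cajal, had 1.4, 2.38 and 3.41 CPM with overexpression, against 1.58, 0.732 and 3.05 CPM in controls. These levels rested on 32, 42 and 82 counts with overexpression and 34, 13 and 71 counts in controls. The pairs disagreed in sign and the interval of its log2 fold change of 0.38 ran from -0.38 to 1.14 in the block fit, so at this depth a change of the size seen in Ets1 could not be told from none. Its adjusted p was 0.653 in edgeR.

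Elk3, a ternary complex factor that acts with serum response factor and represses until phosphorylated by ERK, had 66.0, 63.7 and 101 CPM with overexpression, against 57.1, 54.0 and 88.0 CPM in controls. Its pairs differed by nearly the same amount, 0.21, 0.24 and 0.19 on the log2 scale. The SD of the 3 differences, 0.0220, was the smallest among the 10 genes. The log2 fold change was 0.21 (SE 0.08, interval 0.04 to 0.39) with an adjusted p of 0.206 in the edgeR block fit, and it was not called without any of the 3 pairs.

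**Figure D3:**
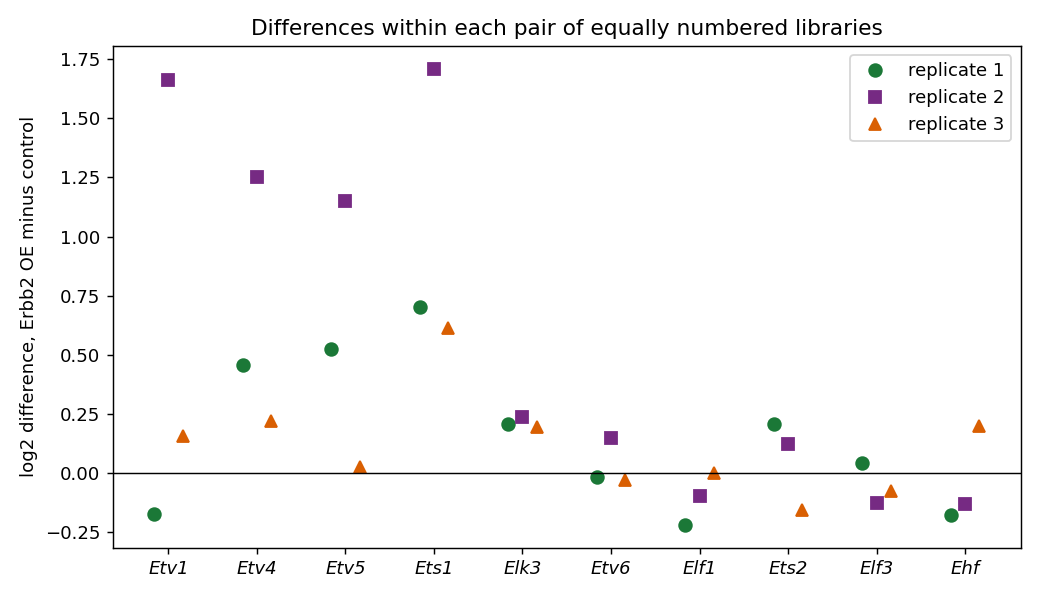
Log2 difference in CPM, Erbb2 overexpression minus control, within each pair of equally numbered libraries, for the 10 ETS genes. The second pair gives the largest difference for Ets1 (1.71), Etv4 (1.25) and Etv5 (1.15), while the 3 differences of Elk3 lie close together.

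The genes of the epithelium-specific branch and the other abundant factors differed little. Elf3 (ENSMUSG00000003051, chromosome 1) had 396, 531 and 427 CPM with overexpression, against 384, 579 and 450 CPM in controls. Library 2 was the highest of both groups, and the pairs did not run 1 way. Ehf (ENSMUSG00000012350, chromosome 2) had 612, 592 and 638 CPM with overexpression, against 691, 647 and 556 CPM in controls. Pair 3 ran opposite to the others. The log2 fold changes were -0.05 for Elf3 (interval -0.22 to 0.11) and -0.04 for Ehf (interval -0.22 to 0.15), with adjusted p of 0.792 and 0.885 in the edgeR block fit.

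Etv6, also called Tel, had 183, 193 and 180 CPM with overexpression, against 185, 174 and 183 CPM in controls, so that all 6 libraries lay close together. Elf1, a broadly expressed activator, had 155, 169 and 145 CPM with overexpression, against 180, 181 and 145 CPM in controls. In pairs 1 and 2 it was lower with overexpression, and pair 3 was level. The log2 fold changes were 0.03 for Etv6 (interval -0.13 to 0.20) and -0.11 for Elf1 (interval -0.28 to 0.07), with adjusted p of 0.872 and 0.557 in the edgeR block fit. The exons of Elf1 and Elk3 overlap those of Wbp4 (327 bases) and Cdk17 (316 bases) on the other strand, and those of Elf3 and Etv6 overlap antisense genes over 162 and 135 bases. The strand setting of the counting is not given in the sources used here, so reads from these stretches cannot be assigned.

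**Figure D4:**
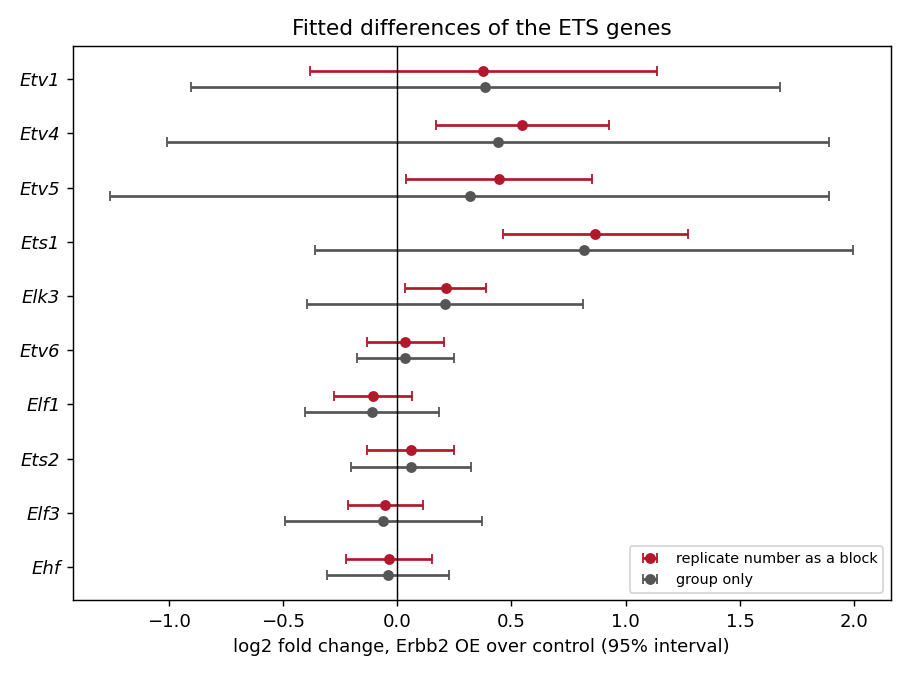
Log2 fold change of Erbb2 overexpression over control for the 10 ETS genes, with 95% intervals, from the fit with the replicate block and the fit with the group alone. Ets1 lies farthest from 0 (0.87 with the block, interval 0.46 to 1.27). The interval of every gene is wider without the block, and far wider for Ets1, Etv4, Etv5 and Elk3.

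Etv1, Etv4, Etv5 and Ets1 varied widely between libraries of the same group. The highest overexpressing library was above the lowest by 2.67-fold for Etv4, 2.59-fold for Etv5, 1.98-fold for Ets1 and 2.45-fold for Etv1. Among controls it was 5.46-fold for Etv4, 5.65-fold for Etv5, 4.26-fold for Ets1 and 4.17-fold for Etv1. The control libraries therefore spread more widely than the overexpressing ones for all 4 of these genes, and control 2 was the lowest of the 6 libraries for each. By contrast the controls of Etv6 spread 1.06-fold, those of Ets2 1.14-fold, those of Ehf 1.24-fold and those of Elf1 1.25-fold. Over all genes tested the median log2 range within the controls was 0.46, and 19% of genes had a log2 range of at least 1, as Etv1, Etv4, Etv5 and Ets1 did.

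For Ets1, the genes whose log2 CPM was most like it over the 6 libraries, among 11220 whose mean log2 CPM was 1 or more, were Rab11fip5, Gadd45a, Dock6, Smurf1 and Vamp5. Pearson's r was 0.997 for Rab11fip5 and 0.993 for Vamp5. In all, 158 of the 11220 genes exceeded 0.95, so an r over 0.95 was not particular to the genes named. Rab11fip5 had 23.3, 16.6 and 27.4 CPM with overexpression, against 17.3, 7.55 and 22.1 CPM in controls, the same order within each group as Ets1. For Elf3, the most abundant member per length, the nearest were Hibch (r of 0.997), Prorsd1, Prdx3, Ubl7 and Akr7a5 (r of 0.981), with 42 genes over 0.95. The 6 points of each value share replicate numbers and conditions.

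Among the 16 other ETS genes 9 were tested, and edgeR called 0 of them with the block and 0 without it. At an unadjusted p under 0.05, 1 of the 9 passed with the block, against 16.9% of all genes, and 0 without it, against 3.33%, so that these counts did not stand out from the background. That gene was Etv3, a repressor, with 49.4, 62.4 and 40.0 CPM with overexpression, against 42.7, 49.6 and 32.7 CPM in controls. It was higher in every pair although the groups overlapped, by 0.28 on the log2 scale (SE 0.09), and its adjusted p was 0.136 in the edgeR block fit. Spdef, which directs goblet and mucous cell maturation, had 25.1, 28.4 and 28.5 CPM with overexpression, against 23, 30.9 and 44.8 CPM in controls. Control 3 stood above all the other libraries, and the log2 fold change was -0.24 with an adjusted p of 0.445 in the edgeR block fit. The log2 fold changes of Elf2, Elf4, Elk1, Elk4, Erf, Gabpa and Spib ran from -0.24 (Spib) to 0.05 (Elk4). Erg, Etv2, Fli1, Spi1 and Spic, factors of endothelial or blood cells, had 0 counts in every library, which allows up to 0.125 to 0.170 CPM in overexpressing libraries and 0.129 to 0.169 CPM in controls, by counting error alone. Elf5 reached 7 counts and Fev 2 counts at most.

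Regulators and partners of ETS factors were also looked at as a group of 18 genes, all of them tested. In edgeR, 0 of 18 were called with or without the block, and at an unadjusted p under 0.05 there were 2 with it, against 16.9% of all genes, and 1 without it, against 3.33%. These counts too did not stand out from the background. Srf, the partner of Elk factors on serum response elements, had 43.1, 46.8 and 45.6 CPM with overexpression, against 51.7, 64.0 and 53.5 CPM in controls. All 3 overexpressing libraries were below all 3 controls, and the block fit in edgeR gave a log2 value of -0.31 (SE 0.09) at an adjusted p of 0.0958. Map2k1, which encodes the ERK kinase MEK1, was higher in 3 of 3 pairs, by 0.21 on the log2 scale in the block fit (adjusted p of 0.243, edgeR). Cop1, the ubiquitin ligase that marks PEA3 factors for degradation, and Trib2, a pseudokinase that binds that ligase, were lower in 3 of 3 pairs. Their log2 fold changes were -0.19 for Cop1 and -0.21 for Trib2, with adjusted p of 0.318 and 0.421 in the same edgeR fit. Of the 18 genes, 3 were higher and 4 lower in 3 of 3 pairs, against 19.6% and 19.2% of all genes, so neither count stood out. Cic itself, named beside its role above and not by a rule, had 0.09 with an adjusted p of 0.652 in that edgeR fit.

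Genes read as ERK pathway output gave the most calls: 5 of 20 rose and 0 fell with the block, against 2.37% and 0.723% of all genes, and 13 of 20 were higher in 3 of 3 pairs, against 19.6% of all genes. At an unadjusted p under 0.05, 12 of 20 passed with the block, against 16.9% of all genes. This list, like the others here, was chosen with earlier results of these data known, so its counts beside those shares are a description. Without the block edgeR called 0 of 20, against 0% of all genes, and 3 had an unadjusted p under 0.05, against 3.33%. DESeq2 without the block called Dusp4 (adjusted p of 0.00523). Ier3, an immediate early survival gene, had 52.3, 55.9 and 77.7 CPM with overexpression, against 30.6, 32.6 and 46.5 CPM in controls. Each overexpressing library was above every control. Its log2 fold change was 0.76 (SE 0.09) with an adjusted p of 0.00125 in the edgeR block fit. Epha4, an ephrin receptor gene, rose by 0.70 on the log2 scale (adjusted p of 0.00677, edgeR block fit), and Dusp4, which encodes a nuclear phosphatase of ERK, by 0.65 (adjusted p of 0.00809). Neither showed overlap between the groups. Myc, the growth regulator, had 0.42 with an adjusted p of 0.0124 in the edgeR block fit, and its groups overlapped, with both libraries numbered 3 highest. The remaining call was Ccnd1, the gene of cyclin D1, whose groups overlapped. It had 710, 625 and 1200 CPM with overexpression, against 600, 441 and 730 CPM in controls. Results with a pair left out are not given for Ccnd1. Its log2 fold change was 0.49 with an adjusted p of 0.0135 in edgeR with the block. Several genes of the list were nearly level in that fit: Spry1 (-0.07), Spry2 (-0.08), Dusp5 (0.01), Il17rd (0.04), Egr1 (0.08) and Fos (0.03). Dusp6 stood at 0.22 and was not called (adjusted p of 0.288, edgeR block fit). Of the 20 genes, 18 had a log2 fold change above 0 and 2 below in the edgeR block fit, against 6095 above and 6498 below among all 12593 genes. Without the block 17 were above 0 and 3 below, against 6013 and 6580 among all genes. Without the libraries numbered 2, edgeR with the block no longer called Epha4 (0.61, adjusted p of 0.0605), Dusp4 (0.58, 0.0754) or Myc (0.42, 0.127), while Ier3 stayed past the threshold (0.77, 0.0103).

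Of 16 genes described as ETS targets 13 were tested, and 2 rose and 0 fell with the block, against 2.37% and 0.723% of all genes. In edgeR without the block 0 of 13 were called, and 1 had an unadjusted p under 0.05, against 3.33% of all genes. DESeq2 without the block called Ptgs2 (adjusted p of 0.0314). Mmp3, Mmp9 and Mmp10, matrix metalloproteinase genes, had too few counts, with at most 3 in any library. Ptgs2, which encodes the prostaglandin enzyme COX-2, had 55.3, 59.5 and 65.3 CPM with overexpression, against 32.1, 34.3 and 43.4 CPM in controls. The groups did not overlap, and its log2 fold change was 0.72 (SE 0.09) with an adjusted p of 0.00203 in the edgeR block fit. Tgfbr2, the type II receptor of transforming growth factor beta, had 328, 294 and 427 CPM with overexpression, against 282, 239 and 306 CPM in controls. It was higher in every pair, with groups that overlapped, and it rose by 0.33 on the log2 scale (SE 0.08, adjusted p of 0.0448, edgeR block fit). The Tgfbr2 call was lost without the libraries numbered 1 (0.39, adjusted p of 0.0671) or 2 (0.36, adjusted p of 0.237) in edgeR. It was also lost when no filter on low counts was used, at an adjusted p of 0.0574 in edgeR. Plaur and Plau, the urokinase receptor and urokinase, had log2 fold changes of 0.25 and 0.61 with adjusted p of 0.235 and 0.256 in the edgeR block fit. Without the libraries numbered 3, Plaur had 0.39 with an adjusted p of 0.00371 in edgeR with the block.

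**Figure D5:**
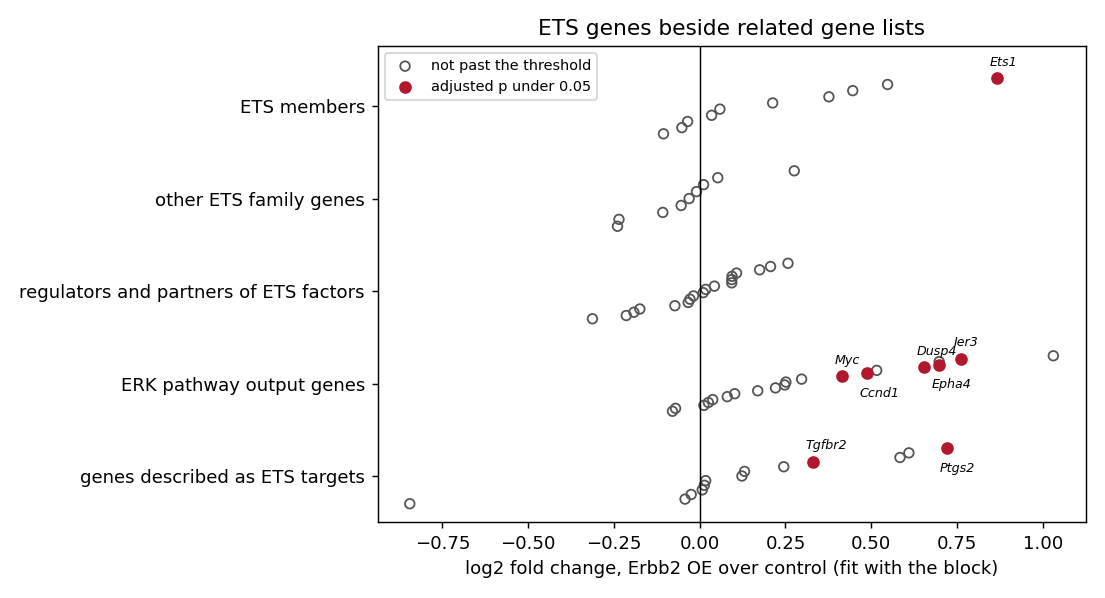
Log2 fold change of Erbb2 overexpression over control in the fit with the replicate block, 1 point per tested gene, for the 10 ETS genes and 4 related lists; filled points passed an adjusted p of 0.05. The ETS genes hold 1 filled point, Ets1, the ERK output genes 5 and the described targets 2, while other ETS genes and regulators hold none.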

How the data were processed

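Polyadenylated RNA of organoids was sequenced in 3 Erbb2-overexpressing and 3 empty-vector libraries, and each deposited table gives raw read counts per Ensembl gene, whole numbers per the file headers. The submitters' processing notes name STAR, featureCounts and GRCm39, while their versions, the annotation and the strandedness of counting are not given there or elsewhere in the sources used here. Tables held 25528 IDs, of which 25424 matched a symbol in the name tables given, and exonic lengths came from GENCODE M21 of an earlier build (GRCm38), so gene coordinates are not given. Libraries of 1 group differed by 34.8 to 131 chi-square per degree of freedom, so none was a duplicate.

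Genes were kept by filterByExpr (minimum count 10), which left 12593, scaled by TMM and tested with the two-sided robust quasi-likelihood F test of edgeR 4.0.16 in R 4.3.3, adjusted by Benjamini-Hochberg at 0.05. The SE was obtained as log2 fold change over root F. The group alone was the design, and the replicate number as a block was an alternative. Same-numbered libraries correlated at 0.299, 0.619 and 0.675 in their deviations from group means, all over 0.1, so block values are given. Overexpressing 2 with control 1 (0.123) and overexpressing 1 with control 2 (0.102) passed 0.1 too, so this cut-off does not separate like from unlike numbers. The pairing by number comes from the titles' numbers and the counts themselves, and the labels do not say what the numbers share. The fits were tested on simulated data in which libraries of the same number shared a deviation. That simulation takes the pairing as given and so does not test it.

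A marker of the immune list is not reported here. Alternatives were DESeq2 1.42.0 (no adjusted p for 250 genes), limma 3.58.1 with voom, other scalings and filters, an earlier form of the fit, and libraries or pairs left out. Named genes were all 10 ETS genes, Erbb2, the other tested ETS genes and up to 4 genes per related list with the smallest p in the block fit. Cic, Ccnd1, Spry1, Spry2, Dusp5, Dusp6, Il17rd, Egr1 and Fos were named outside that rule, after their values were seen. The members and lists were chosen with earlier results of these data known. Intervals and floors cover these libraries and counting error only.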

Additional observations from a re-analysis of the deposited data

How the results depend on the processing

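With the group alone, 0 genes and 0 ETS genes were called by edgeR under TMM, relative log expression or upper-quartile scaling, by limma voom, with no filter on low counts or at least 1 CPM in 3 libraries, and without mitochondrial genes and Erbb2. DESeq2 called 34 genes (28 higher, 6 lower) and 0 ETS genes. Adding the replicate block, which uses the pairing by number, gave 389 genes (298 higher, 91 lower) and 1 ETS gene. With the block and 1 further change, counts of all, higher and lower genes were 462, 366 and 96 by DESeq2 (2 ETS genes, Ets1 and Etv4), 417, 311 and 106 by limma voom, 395, 312 and 83 under relative log expression, 380, 287 and 93 under upper-quartile scaling, 345, 272 and 73 without a filter, 388, 306 and 82 at 1 CPM in 3 libraries, 405, 312 and 93 under the earlier form, and 389, 298 and 91 without mitochondrial genes and Erbb2. The last of these settings was added after the data were seen. Each of them apart from DESeq2 called 1 ETS gene. Leaving out libraries singly without the block, or pairs with it, gave 0 to 1089 genes (0 to 769 higher, 0 to 320 lower) and 0 to 3 ETS genes. A single library left out gave 1 gene at most, higher and found without control 3. With the block, counts of all, higher and lower genes were 213, 173 and 40 without pair 1, 145, 121 and 24 without pair 2, and 1089, 769 and 320 without pair 3, with 0, 0 and 3 ETS genes. The causes were not tested.

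With single libraries left out, the log2 fold change changed sign for Etv4 (-0.035 to 1.2), Etv5 (-0.24 to 1.34), Elk3 (-0.035 to 0.47), Ets2 (-0.013 to 0.12), Elf3 (-0.20 to 0.11), Ehf (-0.12 to 0.028), Spdef (-0.47 to 0.023), Trib2 (-0.53 to 0.062) and Myc (-0.099 to 0.90). Etv4, Elk3 and Myc turned negative without overexpressing library 3, and Etv5 without that library or control 2. These fits had no block and kept the other library of that number without its partner. With the block and a pair left out, the lowest values were 0.34 for Etv4, 0.26 for Etv5, 0.21 for Elk3 and 0.38 for Myc. With the block, the sign changed for Ehf (0.035 without pair 1, 0.024 without pair 2), Ets2 (-0.016 without pair 1), Etv6 (-0.0091 without pair 2) and Spdef (0.0069 without pair 3). Ets1 kept its sign, from 0.43 to 1.24 over all these.

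With 3 libraries per group, differences of low genes such as Etv1 stay imprecise.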
